A study of Mus musculus with 2 samples.

Results

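Glycogen is the branched glucose store of muscle, and 9 genes for its synthesis, breakdown and control were followed here among the 55536 annotated genes of the series. They were taken by symbol: Pygm, Gys1, Gyg, Gbe1, Phka1, Phkb, Phkg1, Ppp1r3a and Ppp1r3c. Each symbol matched a gene in every table. Total RNA was sequenced from the gastrocnemius, a fast calf muscle, of adult male mice of the strain labelled 5xFAD/CAST, aged 8 to 10 months, with 300 ng of RNA per library. 5xFAD carries mutant human amyloid transgenes driven by the Thy1 promoter, which is active mainly in neurons, and CAST is an inbred strain of castaneus origin. The series held 2 libraries of this single group, replicates 1 and 2, which the labels give as distinct biosamples of the same donor entry, with no treatment and no control genotype, so no groups could be compared. A ± value is the SD over n = 2 libraries. That spread may be technical, because nothing states that the biosamples came from separate animals.

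Glycogenin, encoded by Gyg, starts a glycogen particle by adding glucose to itself. Glycogen synthase (Gys1) then lengthens the chains and the branching enzyme (Gbe1) adds branch points. Breakdown runs through glycogen phosphorylase (Pygm), which is switched on when phosphorylase kinase adds a phosphate to it. That kinase is built from the regulatory subunits alpha (Phka1) and beta (Phkb) and the catalytic subunit gamma (Phkg1), and is activated by calcium. The targeting subunits Ppp1r3a and Ppp1r3c bring protein phosphatase 1 to glycogen, where it reverses these phosphorylations.

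These control points can be read in the coding RNA. Short stretches of the GENCODE M21 transcripts are shown 5′ to 3′, with codons counted from the start codon. In Pygm the capitals mark serine codon 15, the target of phosphorylase kinase. In Gyg they mark tyrosine codon 195 of the model Gyg-203 (333 codons), which receives the first glucose. In Gys1 they mark 4 serine codons from 641 to 653, the sites of GSK3, a kinase that holds the synthase down. In Ppp1r3a (codons 65 to 68) and Ppp1r3c (codons 84 to 87) they mark the short motif that docks protein phosphatase 1.
Pygm: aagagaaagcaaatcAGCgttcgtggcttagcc
Gyg: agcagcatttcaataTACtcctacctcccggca
Gys1: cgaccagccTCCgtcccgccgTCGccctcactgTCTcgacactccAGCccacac
Ppp1r3a: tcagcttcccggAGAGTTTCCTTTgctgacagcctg
Ppp1r3c: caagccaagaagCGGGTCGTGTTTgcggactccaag

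The gene tables summed to 35163970 expected counts over annotated genes in replicate 1 and 35412240 in replicate 2. Expected counts are estimated read counts, where ambiguous reads are shared out over the genes they match. The 9 genes together took 1.03% and 1.02% of these counts. Fibre markers were at levels of skeletal muscle: 8 fast fibre genes summed to 64646 and 62179 TPM and 8 slow fibre genes to 1591 and 1385 TPM. TPM is the deposited abundance, corrected for transcript length and scaled to a fixed total per library. Of 6 hepatocyte markers, 2 reached 1 TPM in both libraries, the list summed to 12.6 and 12.3 TPM, and Apoa1 was at 0 counts. The neuron and astrocyte list summed to 6.62 and 6.11 TPM. Liver matters here because it has its own forms of several of these enzymes. Levels of bulk tissue cannot tell fewer cells of a type apart from less RNA per cell.

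All 9 genes were expressed at 1 TPM or more in both libraries, and Pygm stood far above the rest. Pygm had 3861 TPM in replicate 1 and 3725 in replicate 2, and ranked 15 among 22015 nuclear protein-coding genes by mean TPM. Its mean was 13 times that of Phka1, the next highest. After Phka1 (297 and 286 TPM) came Phkb (209 and 191 TPM), Gyg (206 and 187 TPM), Phkg1 (141 and 130 TPM), Gys1 (137 and 124 TPM), Ppp1r3a (115 and 102 TPM) and Ppp1r3c (133 and 76.5 TPM). Gbe1 closed the order with 20.7 and 18.5 TPM, at rank 2608. The library ranges of Phkb and Gyg overlapped, as did those of Phkg1 and Gys1 and those of Ppp1r3a and Ppp1r3c. The gap within each of these pairs was thus not larger than the spread between libraries. Within each library Phkb was above Gyg and Phkg1 above Gys1, while Ppp1r3a and Ppp1r3c changed places. A second quantification of the same reads put Gyg (186 and 175 TPM) above Phkb (171 and 161 TPM). All other neighbours in the order of means were separated. Ppp1r3c, at 133 TPM in replicate 1, also reached the ranges of Phkg1 and Gys1, which are not its neighbours. The posterior SD of the gene count, the uncertainty left by sharing out ambiguous reads, was 0 in both libraries for all 9 genes. Reads that also match another gene were not counted here, so their absence is not shown.

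**Figure D1:**
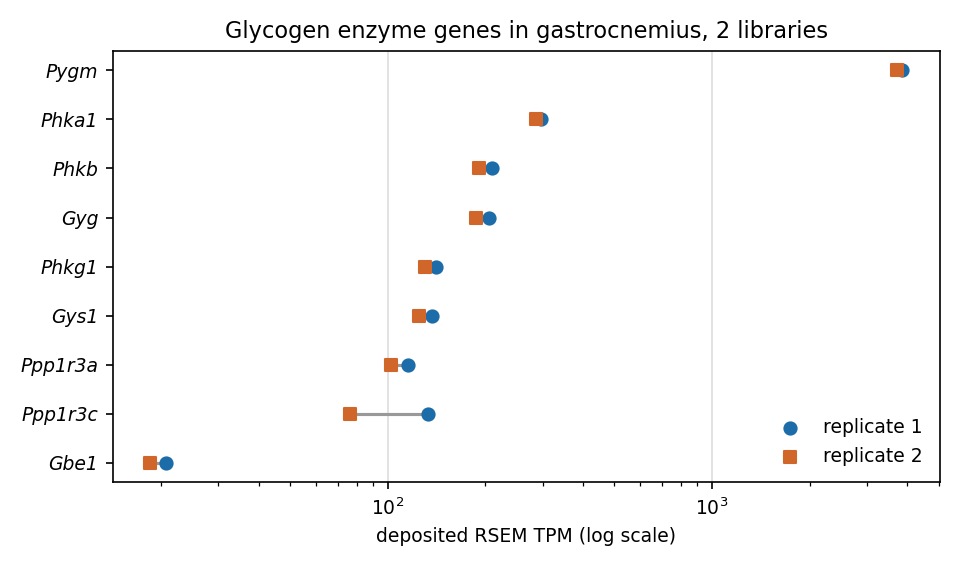
Deposited TPM (log axis) of the 9 glycogen genes, circles for replicate 1 and squares for replicate 2, joined by a grey line, in order of mean TPM. Pygm lies at a mean of 3793 TPM, 7 genes lie between 76.5 and 297 TPM, and Gbe1 lies at a mean of 19.6 TPM.

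The synthesis genes were unequal in level. Gyg (ENSMUSG00000019528.18, chromosome 3, 20122084 to 20155317, mm10) exceeded Gys1 1.5-fold in TPM in each library. Gys1 (ENSMUSG00000003865.16, chromosome 7, 45434844 to 45456619) stood at 131 ± 8.89 TPM, and overlaps Ruvbl2 on the opposite strand. Gbe1 (ENSMUSG00000022707.16, chromosome 16, 70313949 to 70569716) stood at 19.6 ± 1.55 TPM, and Gys1 exceeded it 6.67 ± 0.07 fold. Of these 3 synthesis genes, Gbe1 had the lowest TPM in both libraries.

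Of the breakdown genes, Pygm was far higher than every synthesis gene. This did not hold for all breakdown genes, as Phkg1 (141 and 130 TPM) was below Gyg (206 and 187 TPM). Pygm (ENSMUSG00000032648.14, chromosome 19, 6384399 to 6398459) was covered by 252455 and 256448 expected counts. It exceeded Gys1 29.1 ± 1.24 fold. In the kallisto-layout table, a second quantification of the same reads in the layout that kallisto writes, Pygm exceeded Gys1 24.4 fold in replicate 1 and 25.9 fold in replicate 2. The gap between Pygm and Gys1 was therefore larger than both the spread of the libraries and the difference between the tables.

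For phosphorylase, glycogen synthase and the alpha and gamma kinase subunits, the muscle gene held almost all of the family's TPM. Pygm made up 99.9% of the summed TPM of the phosphorylase genes in both libraries, while Pygb, named for brain, was at 2.24 and 2.15 TPM and Pygl, the liver form, at 0.60 and 0.66 TPM. Gys1 made up 99.9% of glycogen synthase TPM, and the liver gene Gys2 had 5 expected counts in each library. Phka1 made up 99.2 ± 0.04% against Phka2, the liver alpha subunit, at 2.35 and 2.45 TPM. Phkg1 made up 97.3 ± 0.04% against Phkg2, the liver and testis gamma subunit, at 3.92 and 3.69 TPM. The partner genes were thus at 4 TPM or less, which does not tell a low level in fibres from expression in other cells of the tissue.

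**Figure D2:**
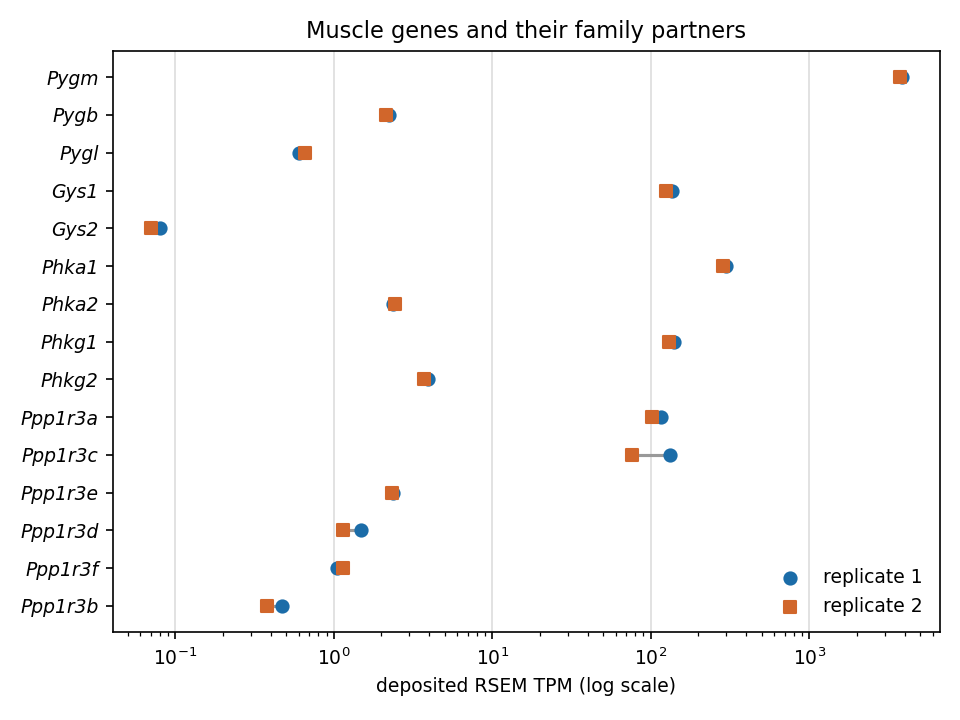
Deposited TPM (log axis) of muscle glycogen genes and their family partners, circles for replicate 1 and squares for replicate 2. The muscle genes lie at 76.5 TPM or more and every partner lies below 4 TPM. Ppp1r3g, at 1 and 0 counts, is not drawn.

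These subunits of phosphorylase kinase occur in equal numbers in the enzyme, but their transcripts did not have equal TPM. Phka1 (ENSMUSG00000034055.16, chromosome X, 102513975 to 102644246) stood at 291 ± 7.54 TPM, Phkb (ENSMUSG00000036879.15, chromosome 8, 85840959 to 86061376) at 200 ± 13.0 TPM and Phkg1 (ENSMUSG00000025537.12, chromosome 5, 129863421 to 129898549) at 135 ± 7.95 TPM. Phka1 exceeded Phkg1 2.15 ± 0.07 fold. The order of the lower members depended on which transcripts were summed. Over full-length coding models alone (the 6 of Phka1, Phkg1-201 and Phkb-201), a choice made after the gene values were seen, Phka1 had 210 and 204 TPM, Phkg1 124 and 111 TPM and Phkb 86.3 and 79.4 TPM. Over all coding models, short ones included and likewise summed after seeing the data, Phkb had 169 and 151 TPM (4 models) and Phkg1 133 and 121 TPM (3 models). Phkb therefore ranked second by gene TPM and by all coding models, and last by full-length models. In the kallisto-layout table Phkb also stayed above Phkg1 over all coding models (136 and 126 TPM against 126 and 121 TPM). Its full-length values were 187 and 190 TPM for Phka1, 112 and 102 TPM for Phkg1 and 84.9 and 81.7 TPM for Phkb. Phkg1 overlaps Sumf2 and Zbed5 on the opposite strand and Gm42790 and Chchd2 on its own, Phkb overlaps Gm16167 and Hm629797, and no strand setting of the counting is given in the sources used here.

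Phka1 was expressed in a long and a short coding form that differ by 1 exon. The exon, on the reverse strand at chrX:102557096-102557272 in mm10, is coding, holds 177 bases (59 codons) and keeps the reading frame. The short form that lacks such an exon is known as alpha prime and is typical of slow and heart muscle. The exon is shown in capitals with 20 spliced bases on each side, since the balance of both forms rests on it.
Phka1 exon: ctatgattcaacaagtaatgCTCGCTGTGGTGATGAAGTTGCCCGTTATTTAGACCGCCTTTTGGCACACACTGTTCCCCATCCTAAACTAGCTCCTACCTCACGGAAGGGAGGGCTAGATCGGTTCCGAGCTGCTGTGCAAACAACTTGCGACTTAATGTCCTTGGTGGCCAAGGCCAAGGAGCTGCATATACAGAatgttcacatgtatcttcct

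Both forms were abundant. Phka1-202, with the exon, had 118 and 128 TPM in replicates 1 and 2, and Phka1-201, without it, had 89.1 and 74.9 TPM. Their ranges did not overlap. Phka1-202 was the higher form in both libraries and more so in replicate 2. Over all 7 annotated transcripts, those with the exon held 69.9% and 73.8% of Phka1 TPM (71.9 ± 2.74%). Over the 6 coding transcripts alone they held 57.5% and 63.3% (60.4 ± 4.08%). The gap between these sums comes from Phka1-207, an annotated retained-intron model of 2799 bases that holds the exon and took 29.2% and 28.7% of Phka1 TPM. It was named after its values were seen. In the kallisto-layout table the coding transcripts with the exon held 61.7% and 67.6%. Expected counts of coding transcripts gave 58.3% and 64.0%.

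The share of Phka1-202 in Phka1 TPM was 39.7% in replicate 1 and 44.8% in replicate 2. Among 8726 genes that have several transcripts and average 100 counts or more, 51% had a leading transcript whose share lay at least 5 points apart between the libraries. Among the 227 such genes that average 10000 counts or more, a limit set after seeing the data, 8.37% did. Phka1 was the only one of the 7 glycogen genes with several transcripts to pass 5 points. That count of 1 in 7 lies below the share among all genes. Phka1 belongs to the genes of high counts, but Gyg, Phkg1 and Gbe1 average fewer than 10000. The 7 genes can therefore not be set against 8.37%. The slow fibre list was lower in replicate 2 for 7 of its 8 genes on counts scaled with TMM factors. Its sums were 1591 and 1385 in TPM, a scale on which the median log2 ratio of all genes was -0.13. Its part in the shift of Phka1 was not tested.

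Short annotated models took much of the TPM of Phkb but a smaller part of its reads. Phkb-201, with 32 exons and 5351 bases, held 41.2% and 41.6% of Phkb TPM but 79.5% and 78.9% of its expected counts. Phkb-206, a coding model of 630 bases, held 39.2% and 36.5% of TPM on 7.63% and 6.99% of the counts. It lacks the exon at 85843004 to 85843112 (109 bases) that Phkb-201 has near its start. Phkb-207, named after its values were seen, opens with an exon at 86035646 to 86035744 (99 bases) that Phkb-201 lacks. Phkb-207 held 18.5% and 20.3% of TPM on 12.6% and 13.6% of the counts. The kallisto-layout table gave Phkb-201 49.6% and 50.8%, Phkb-206 29.1% and 25.8% and Phkb-207 19.8% and 20.4%. The model order was the same in both tables and both libraries, and the short models raise the gene TPM of Phkb above that of its full-length RNA.

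For Gyg the tables named different leading transcripts. Gyg-203 and Gyg-201 share their downstream exons, and Gyg-201 starts 221 bases further upstream and opens with 44 additional codons in the same frame (377 codons against 333). In the deposited RSEM-layout transcript table, called RSEM table here, Gyg-203 held 98.2% and 97.8% of Gyg TPM and Gyg-201 held 1.25% and 1.78%. In the kallisto-layout table Gyg-203 held 55.4% and 40.2% and Gyg-201 held 44.0% and 59.3%. Gene TPM differed little, at 206 and 187 in the RSEM table and 186 and 175 in the kallisto-layout table. Which start site glycogenin RNA used in this muscle can therefore not be read from these tables. Gyg was the only one of 7 members whose leading transcript, by summed TPM, differed between tables, against 15.8% of the 8726 genes.

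Gbe1 was split among models that are nearly the same sequence. Gbe1-203, Gbe1-201 and Gbe1-206 each encode 702 codons and differ at 1 of 2106 coding bases, and Gbe1-201 and Gbe1-206 have identical coding sequences. One of the annotated differences between Gbe1-203 and Gbe1-201 leaves the RNA unchanged: the 4 bases in capitals end an exon in the first model and open the next exon in the other.
Gbe1 junction: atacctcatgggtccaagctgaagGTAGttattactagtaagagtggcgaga
In the RSEM table Gbe1-203 held 37.9% and 36.3% of TPM, Gbe1-201 37.3% and 31.5% and Gbe1-206 22.2% and 30.5%. In the kallisto-layout table Gbe1-203 held 87.4% and 97.8%. The posterior SD of the Gbe1-201 count was 191 in replicate 1, on 541 expected counts, and 176 in replicate 2, on 435. Shares of single Gbe1 models were thus poorly fixed, whereas the gene level was 19.3 and 17.7 TPM in the kallisto-layout table, close to the RSEM values.

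Pygm, Gys1 and Phkg1 each had a dominant coding transcript. Pygm-201, with 20 exons, held 90.7% and 89.8% of Pygm TPM and 98.4% and 98.2% of its expected counts. Pygm-203, an annotated retained-intron model of 532 bases at the 3′ end of the gene, held 8.84% and 9.85% of TPM in the RSEM table and none in replicate 1 of the kallisto-layout table, where Pygm-201 held 99.5% in both libraries. Gys1-201 held 97.9 ± 0.08% of Gys1 TPM, and its next transcript Gys1-203 held 1.06 ± 0.11%. Phkg1-201 held 88.2% and 85.8% of Phkg1 TPM and Phkg1-202 held 5.70% and 7.18%. Ppp1r3a and Ppp1r3c have 1 annotated transcript each.

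**Figure D3:**
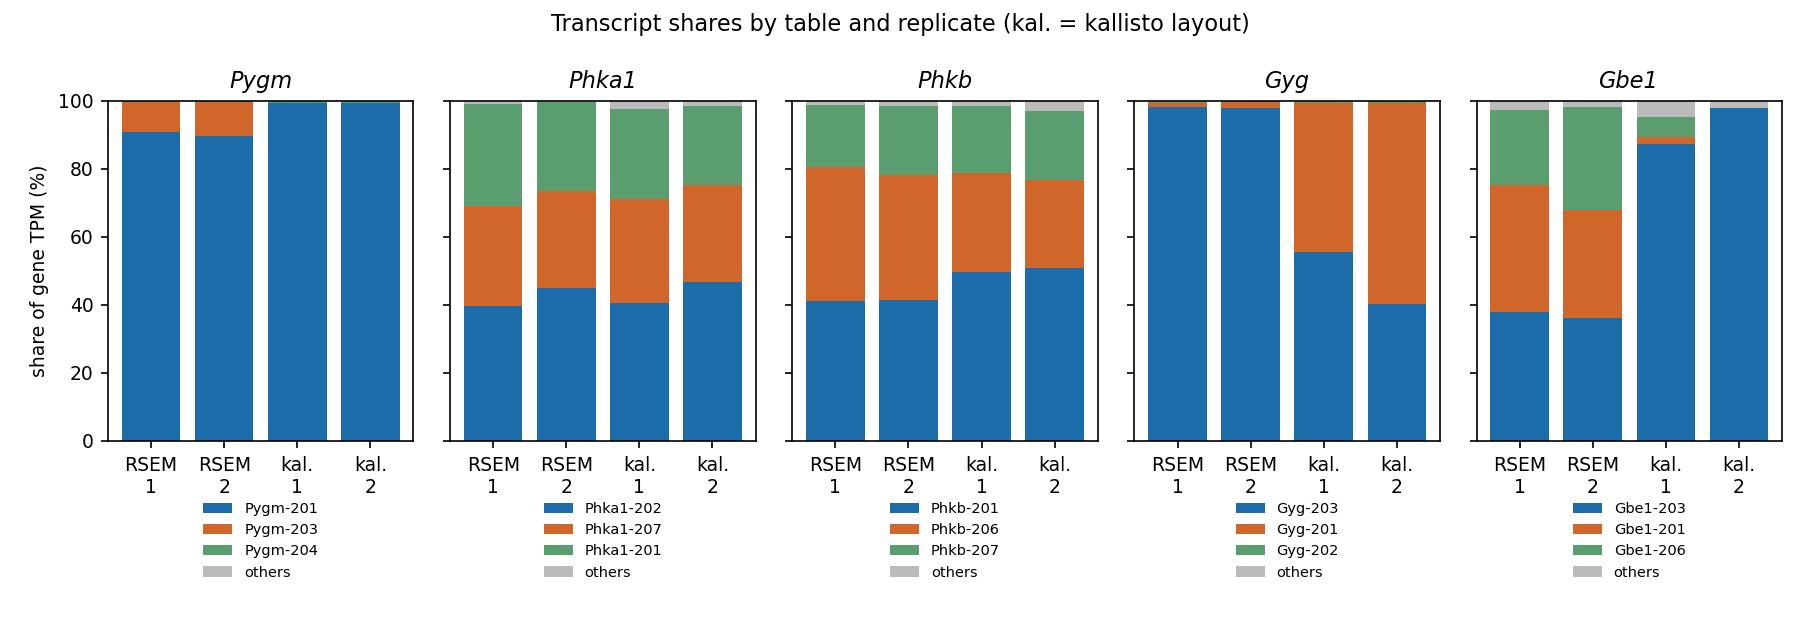
Share of gene TPM (percent) on the 3 leading transcripts of Pygm, Phka1, Phkb, Gyg and Gbe1, with the rest in grey, for replicates 1 and 2 in the RSEM and kallisto-layout (kal.) tables. The bars of Phka1 and Phkb keep their order of coding models in both tables, while those of Gyg and Gbe1 change between tables.

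Gene levels differed less between quantifications than transcript shares did. The ratio of kallisto-layout to RSEM gene TPM ran from 0.818 to 1.01 over the 9 genes and both libraries. None was 1.5-fold apart, against 3.31% of the 9741 genes that average 100 counts or more.

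Ppp1r3c was the member that set the libraries apart. It encodes the targeting subunit also called PTG, which binds glycogen and promotes its synthesis. Replicate 1 held 8932 expected counts of it and replicate 2 held 5453, or 133 and 76.5 TPM, a gap far wider than those of the other members. The log2 ratio of replicate 2 to replicate 1 was -0.66, with an exact binomial 95% interval of -0.71 to -0.61, so the gene was 1.58-fold higher in replicate 1. The ratio uses TMM-scaled counts, and the interval covers counting error only, as reads are not independent molecules and there is 1 library per side. Of the 9741 genes, 0.595% were at least 1.5-fold lower in replicate 2, and 38 were as low as Ppp1r3c or lower. The kallisto-layout counts gave -0.67. Ppp1r3c (ENSMUSG00000067279.3) lies on chromosome 19 from 36731731 to 36736653, and the posterior SD of its count was 0 in both libraries.

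The other 8 genes lay within 1.2-fold of equality. Phka1 (0.09, interval 0.07 to 0.11) and Pygm (0.07, interval 0.07 to 0.08) had intervals above 0, and Ppp1r3a (-0.03, interval -0.06 to -0.004) one below 0. The intervals of Phkb (0.03), Gyg (0.003), Gys1 (-0.002), Phkg1 (-0.01) and Gbe1 (-0.04) held 0. The median over the 9 genes was -0.002, beside 0.002 over all 9741 genes. In all, 1 of 9 genes was at least 1.2-fold apart, against 11.8% of all genes, a share near the background. On the TPM scale all 9 were lower in replicate 2 and their median log2 ratio was -0.14, where the median of all genes was -0.13. Signs of the 8 small ratios therefore follow the scale chosen.

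**Figure D4:**
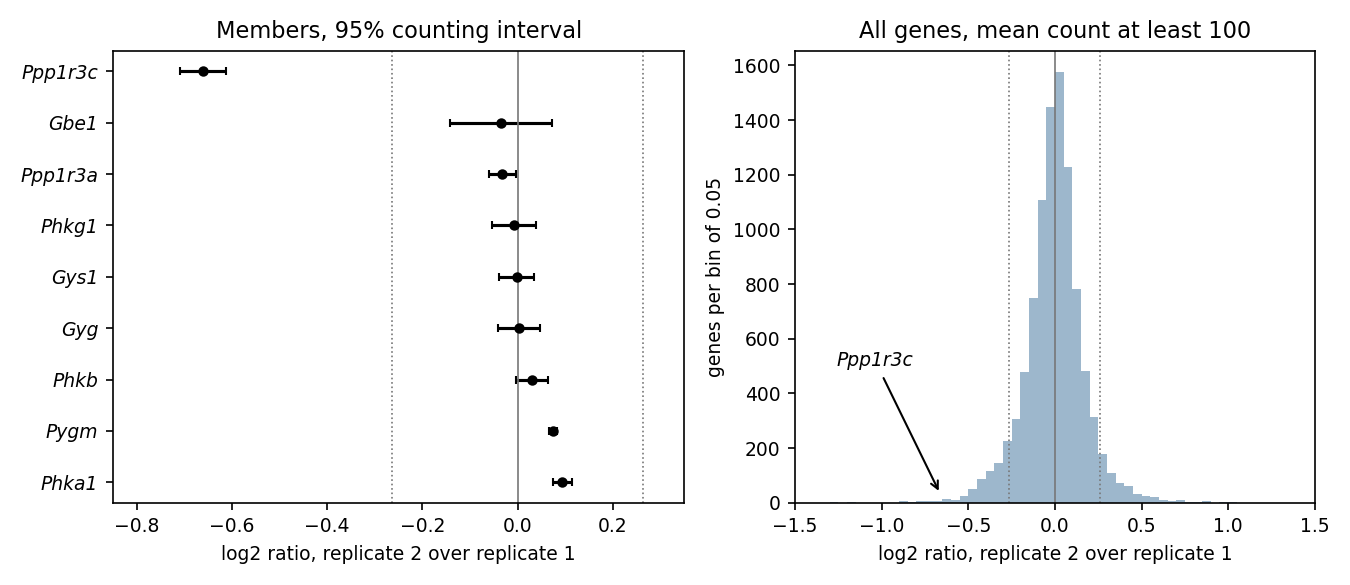
Left, log2 ratio of replicate 2 to replicate 1 for the 9 genes with exact binomial 95% intervals. Right, the same ratio over the 9741 genes that average 100 counts or more, in bins of 0.05. Dotted lines mark 1.2-fold, and Ppp1r3c at -0.66 is the only one of the 9 genes beyond them.

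The drop of Ppp1r3c changed the balance of the phosphatase targeting subunits. Ppp1r3a, the large muscle form that also anchors to the sarcoplasmic reticulum (ENSMUSG00000042717.5, chromosome 6, 14713977 to 14755274), had 20248 and 19096 expected counts. It made up 45.4% of the summed TPM of the 7 Ppp1r3 genes in replicate 1 and 55.7% in replicate 2. Ppp1r3c made up 52.4% and 41.6%. The order of the pair was therefore opposite in the libraries, and it was opposite in the kallisto-layout table too (44.6% and 55.0% for Ppp1r3a, 53.1% and 42.0% for Ppp1r3c). Together they held nearly all of the family. Ppp1r3e was at 2.37 and 2.34 TPM, Ppp1r3d at 1.49 and 1.14 TPM, Ppp1r3f at 1.05 and 1.14 TPM and Ppp1r3b, the liver form, at 0.47 and 0.38 TPM. Ppp1r3g had 1 and 0 counts, and a count of 0 allows up to 3.

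Several marker lists were mostly lower in replicate 2, as Ppp1r3c was, the adipocyte and endothelial lists among them. Markers are called lower on TMM-scaled counts, whereas the sums are in TPM, where the median log2 ratio of all genes was -0.13. All 6 adipocyte markers were at 1 TPM or more in both libraries and lower in replicate 2, with sums of 189 and 127 TPM and a median log2 ratio of -0.38. Of 6 endothelial markers 5 were lower, with sums of 60.8 and 45.1 TPM and a median log2 ratio of -0.33. Of 5 smooth muscle markers 2 were lower, with sums of 143 and 113 TPM and a median of 0.07. Of 6 leukocyte markers 3 were lower, with sums of 30.5 and 29.3 TPM, a median of 0 and Cd3e at 0 counts. The hepatocyte list was lower for 4 of 6 (median -0.39) and the neuron and astrocyte list for 4 of 6 (median -0.19). Only 2 and 1 of these markers reached 1 TPM in both libraries. Slow fibre markers were lower for 7 of 8 (median -0.10) and fast fibre markers for 1 of 8 (median 0.08). The part of these cells in the ratio of Ppp1r3c was not tested.

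The stretch before the Ppp1r3c start is shown beside that of Pygm, the member of highest level, because these are the genes at the extremes of ratio and level. The sequences are the 250 bases before the start in RefSeq (GRCm38.p6), chr19:36736605-36736854 on the reverse strand and chr19:6384158-6384407 on the forward strand. In GENCODE M21 the genes start further upstream, Ppp1r3c at 36736653 and Pygm at 6384399. The last bases of both stretches, with the last CAGCTG of Pygm, thus lie inside the GENCODE genes. Capitals mark CACGTG (an E-box form bound by clock and related factors), CAGCTG (an E-box form bound by myogenic factors) and CCAAT, on either strand, and none of these marks overlaps another here.
Ppp1r3c: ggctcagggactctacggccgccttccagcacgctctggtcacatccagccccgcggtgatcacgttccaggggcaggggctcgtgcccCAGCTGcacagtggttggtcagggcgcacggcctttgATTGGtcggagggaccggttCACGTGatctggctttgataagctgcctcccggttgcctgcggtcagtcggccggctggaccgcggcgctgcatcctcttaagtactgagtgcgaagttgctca
Pygm: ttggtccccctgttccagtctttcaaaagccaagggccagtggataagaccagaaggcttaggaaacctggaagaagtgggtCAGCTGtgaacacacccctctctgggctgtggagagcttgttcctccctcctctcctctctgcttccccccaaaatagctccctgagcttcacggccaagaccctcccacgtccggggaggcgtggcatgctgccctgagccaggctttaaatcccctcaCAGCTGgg
Over windows of 300 bases (250 before to 50 after the start) and both strands, CACGTG was found for Ppp1r3c and Gyg among the 9 genes and in 7.15% of 32851 promoter windows. CAGCTG was found for 6 of the 9 genes and in 16.3% of windows, and CCAAT for 4 of 9 and in 37.4%. Of the other motifs searched, GGGCGG was found for 5 of 9 and in 35.7%, TATAAA for 1 and in 13.6%, CATTCC for none and in 14.7%, and the MEF2 consensus for 1 (Ppp1r3a) and in 3.19%. The motifs can overlap one another in a window. A match shows only that these letters are present.

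A wider list of the pathway was read beside the members. Of its 36 genes, 26 averaged 100 counts or more, of which 23 lay within 1.2-fold, 2 were higher and 1 was lower in replicate 2, a share near the 11.8% of all genes. Their median log2 ratio was 0.01. The lower gene was Hk1, a hexokinase of most tissues other than muscle fibres (269 and 196 counts, log2 ratio -0.40, interval -0.68 to -0.13). The higher genes were Phka2 (189 and 221 counts, log2 ratio 0.28, interval -0.01 to 0.57) and Ppp1cc (2058 and 2390 counts, log2 ratio 0.27, interval 0.18 to 0.35). The reads of Ppp1cc were partly divided with other genes, with a posterior SD of 81.3 counts in replicate 1.

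Genes that supply the substrate, or the phosphatase itself, ranked among the highest of the wider list. Pgm1, phosphoglucomutase, which links glucose 1-phosphate to glucose 6-phosphate, was at 532 ± 30.8 TPM. Ugp2, which makes the UDP-glucose that glycogen synthase uses, was at 197 ± 13.8 TPM. Slc2a4, the insulin-regulated glucose transporter GLUT4, was at 175 ± 12.2 TPM and Hk2, the muscle hexokinase, at 126 ± 7.57 TPM. Of the catalytic subunits of protein phosphatase 1, Ppp1cb was at 205 ± 25.6 TPM and Ppp1ca at 87.3 ± 1.21 TPM.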

How the data were processed

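Per the labels, ribosomal RNA was reduced, a directional kit was used and ERCC spike-ins were added. For each library, 3 tables made on mm10 and GENCODE M21, per the deposited notes, were read: a gene and a transcript table in RSEM layout and a transcript table in kallisto layout. Per the file headers, these hold expected counts (a read matching several features was shared out among them) and TPM, both estimated by the authors. The RSEM transcript table also holds each transcript's percent of its gene, as deposited; shares were recomputed here from TPM. No aligner, program version or strand setting is given in the sources used here. The 96 ERCC rows and 26249 other rows that name no annotated gene were left out of totals.

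Levels are mean ± SD of TPM. For the ratio of replicate 2 to replicate 1, expected counts were rounded to whole numbers, scaled with TMM factors (edgeR 4.0.16, R 4.3.3) over genes that average 10 counts or more, and given a prior of 0.5. Intervals are exact binomial (Clopper-Pearson) at 95%. Depth was about equal in both libraries. Counting error depends on the counts of each gene and is small except for genes of few counts. The TPM pseudocount was 0.1. The ratio step was tested on simulated data. With 1 library per side no p-value is given. DESeq2 1.42.0 size factors, library totals, ERCC totals, other minimums and the kallisto-layout table served as alternatives. Gene symbols and coordinates are from GENCODE M21. Python used numpy 2.4.6, pandas 2.3.3 and matplotlib 3.10.9.

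Members and lists were chosen with earlier results of these data known. Named beside the members were family partners, the 10 other pathway genes of highest TPM and any at least 1.2-fold apart, and per member the 2 leading transcripts and those at least 10 points apart between libraries or 20 between tables. Other transcripts were named after their values were seen. Some genes of the wider list are not reported here. The planned protein comparison was not run, as no protein sequences were used here.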

Additional observations from a re-analysis of the deposited data

How the results depend on the processing

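The log2 ratio of Ppp1r3c stayed below -0.5 under all 8 alternatives. It was -0.72 with library totals, -0.57 with ERCC totals and -0.80 on deposited TPM. The number of members at least 1.2-fold apart was 1 under all 5 alternatives run, while the share of all genes was 11.8% as reported, 26.8% at a minimum of 10 counts, 4.36% at 500 and 27.2% on TPM. The other 8 ratios ran from -0.17 to -0.05 on TPM and from 0.06 to 0.19 with ERCC totals. The median of all genes on these scales was -0.13 and 0.09. The share of Phka1 with the alternative exon was 75.1% in the kallisto-layout table, 60.4% over coding transcripts and 61.1% over their expected counts, an alternative added after seeing the data, and 69.9% to 73.8% with either library left out. No member was 1.5-fold apart between tables with a pseudocount of 1 or a minimum of 10 counts. Rescaling TPM to nuclear protein-coding genes raised all 9 levels beyond their SD (Pygm to 8470), and the kallisto-layout table moved 5 of them. It moved 6 of 7 leading transcript shares and 4 of 6 family shares, and restriction to coding transcripts moved 5 of 7 leading shares. No paired analysis was possible because the series holds a single group. Depth limits the partner genes, some of which had fewer than 100 counts.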

Other observations

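Genes that clear or remodel glycogen outside the main enzymes were also present, and were named after their values were seen. Gaa, the lysosomal glucosidase that degrades glycogen, was at 80.9 ± 5.18 TPM, and Stbd1, a glycogen-binding protein linked to its uptake by lysosomes, at 15.7 ± 0.25 TPM. Epm2a, the glycogen phosphatase laforin, was at 45.1 ± 2.67 TPM, whereas Nhlrc1, the ubiquitin ligase malin that works with it, was at 2.32 ± 0.23 TPM. Of the kinases that act on glycogen synthase, Gsk3a was at 37.5 ± 3.91 TPM and Gsk3b at 32.5 ± 1.08 TPM. Prkaca, a catalytic subunit of the kinase that activates phosphorylase kinase, was at 66.8 ± 4.15 TPM. Each of these 7 genes lay within 1.2-fold between the libraries.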
